A study of Rattus norvegicus with 7 samples.

Results

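The comparison described here is between the 4 arrays of cells that received one or the other of a pair of small interfering RNAs (siRNAs) directed against the same transcript, that of Adamts16. Of the 7 arrays of the series, 2 carry RNA from cultures given siRNA 3488 and 2 from cultures given siRNA 2600, chosen by their sample titles, and the other 3 carry RNA from cultures given a scrambled siRNA. The scrambled arrays serve only as a reference for which siRNA departs from it. Adamts16 encodes a secreted metalloprotease and was studied here in connection with inherited hypertension in rats. The cells are NRK-52E, an established epithelial line from rat kidney, and every array holds RNA of an independent culture. All 3 groups were plated at 20% confluence in medium with 10% serum and received 100 pmol of duplex per ml in a lipid carrier, and their RNA was collected after 48 h. The groups therefore share the line, the lipid reagent, the dose and the time, and no untransfected culture was analysed here. Since bulk RNA was measured, a change in the number of cells of one kind and a change in the RNA per cell cannot be told apart.

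An siRNA is a short RNA duplex, one strand of which (the guide) is loaded into an Argonaute protein and leads it to transcripts with a matching sequence, which are then cut. The same loaded complex can also lower transcripts that pair only with the seed, the bases near the 5′ end of the guide, as microRNAs do. For this reason siRNAs of different sequence against one gene are often used side by side: they share the intended target and not the seed. ADAMTS proteases act outside the cell on matrix molecules such as procollagens, proteoglycans and fibrillin-associated proteins.

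The strands of the duplexes are printed here because they are the designed difference between the groups. They are written 5′ to 3′ without their overhangs, as the labels give them, with the seed, bases 2 to 8 from the 5′ end, in capitals.
siRNA 3488 antisense strand: tTTCCGGAgacgtacttct
siRNA 3488 sense strand: aGAAGTACgtctccggaaa
siRNA 2600 antisense strand: tTGCGCACagaaatatagg
siRNA 2600 sense strand: cCTATATTtctgtgcgcaa
scrambled control antisense strand: aTTACCGAgcacattggagg
scrambled control sense strand: cCTCCAATgtgctcggtaat
The duplexes against Adamts16 are 19 bases long and the scrambled one is 20 bases long. In each, the antisense strand was the reverse complement of the sense strand. The G and C content was 47.37% in siRNA 3488, 42.11% in siRNA 2600 and 50% in the scrambled duplex. The longest run shared by the antisense strands of siRNA 3488 and siRNA 2600 was 3 bases, and no seed was shared among the 6 strands. None of 693 rat mature miRNA names in the RefSeq table of assembly GRCr8 had bases 2 to 8 in common with any of the strands. The antisense strand of siRNA 2600 shared bases 2 to 7 with 1 of them, rno-let-7i-3p, printed here with those bases in capitals.
rno-let-7i-3p: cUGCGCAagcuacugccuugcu
Matches of the seeds in transcripts were not analysed here.

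The values are linear signals in arbitrary units, as deposited, and each difference below is log2 of the signal with siRNA 3488 minus log2 of the signal with siRNA 2600, ± its standard error. Array medians ran from 125.7 to 139.3. With so few arrays the precision of each value is limited. Replicate arrays differed by a median of 0.16 (log2) in both siRNA groups, and the median absolute difference between the siRNA means was 0.18. The former compares single arrays and the latter means of 2 arrays, which vary less, so the values are not on the same scale. The 18 hybridisation controls, bacterial and bacteriophage transcripts added to each sample after labelling, were all brighter with siRNA 3488 (median difference 0.52, range 0.27 to 0.59). Relative to the scrambled mean they were at 0.33 and 0.70 on the siRNA 3488 arrays and at -0.091 and 0.13 on the siRNA 2600 arrays. Of 27 labelling controls, added before labelling, 5 were brighter with siRNA 3488 (median difference -0.21, range -0.87 to 1.72). The TrpnX probe sets among them were very dim, with mean signals of 2.57, 11.4 and 1.74 and differences of -0.81, 1.72 and 0.07. Without TrpnX the differences ran from -0.87 to 0.15. The actin control's 3′ signal over its 5′ signal, which rises when RNA or cRNA is shorter, was 1.96 and 1.94 with siRNA 3488, 1.83 and 1.81 with siRNA 2600 and 1.74 to 1.79 with the scrambled control. The same ratio for GAPDH was 0.94 and 0.93 with siRNA 3488, 1.04 and 0.93 with siRNA 2600 and 0.91 to 0.95 with the control. For hexokinase it was 4.71 and 3.73, 3.54 and 2.28, and 2.39 to 2.98 in the same order. Of the epithelial markers, Krt8 stood at the 98.2 percentile of the array and Krt19 at 46.2, while Krt18 (16.5), Epcam (13.8) and Cdh1 (6.3) were near the bottom. Of the kidney tubule markers, Aqp1 stood at 64.9, Lrp2 at 43 and Pax8 at 37.2, and Slc34a1 (28.9), Pax2 (17.2) and Cubn (16.6) were lower. Of 7 fibroblast markers, the collagens Col3a1 (99.9) and Col1a1 (94.7) were bright, Col1a2 (66.3) and Pdgfrb (51.6) were intermediate, and Dcn (24.9), Thy1 (22.5) and Pdgfra (10.7) were low. Endothelial markers ranged from 11.6 (Pecam1) to 59.1 (Tek) and leukocyte markers from 6.6 (Ptprc) to 36.1 (Csf1r).

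The shared target came first, since it checks the labels. The Adamts16 probe set (1385969_at) was at 12.1 and 40.4 after siRNA 3488, 21.4 and 2.42 after siRNA 2600 and 8.68, 7.18 and 18.9 after the scrambled duplex. The arrays overlapped in every pairing of groups, and the mean lay at the 15.6 percentile of the probe sets on an array, below the level taken into the tests. The difference between the siRNAs was 1.62 ± 1.13 (95% interval -0.93 to 4.16), with an adjusted p of 0.521 in a limma fit of all probe sets. An exact two-sided permutation test over the 6 splits of the 4 arrays gave p = 0.667, and the smallest p this design allows is 0.333. At this signal neither a fall of the target nor a difference between the siRNAs in how far it fell was detectable, so the arrays do not check the knockdown.

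Across the array, siRNA 3488 and siRNA 2600 gave measurably different profiles. Of 18625 probe sets tested with limma in a fit of all 3 groups, 1119 (6.01%) passed an adjusted p of 0.05, of which 529 (2.84%) were higher with siRNA 3488 and 590 (3.17%) were lower. Most of the differences were small: the median size among the calls was 0.47 on the log2 scale, and 67 probe sets (0.360% of those tested) differed by at least 2-fold, 24 of them higher and 43 lower with siRNA 3488. All 1119 had siRNA 3488 and siRNA 2600 arrays that did not overlap, and so did 49.6% of all tested probe sets. Probe sets called higher were bright (median signal 3547), those called lower were dimmer (707), and the median of all tested was 451. With 1 probe set per gene, 697 of 10019 genes (6.96%) were called, 354 (3.53%) higher and 343 (3.42%) lower. The count varied with the arrays and with the fit. It was 29 in a fit of the 4 siRNA arrays alone and 5 without the intensity trend. It was 1087 and 95 without siRNA 3488 replicates 1 and 2, 107 and 1562 without siRNA 2600 replicates 1 and 2, and 444, 367 and 517 without scrambled replicates 1, 2 and 3.

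**Figure D1:**
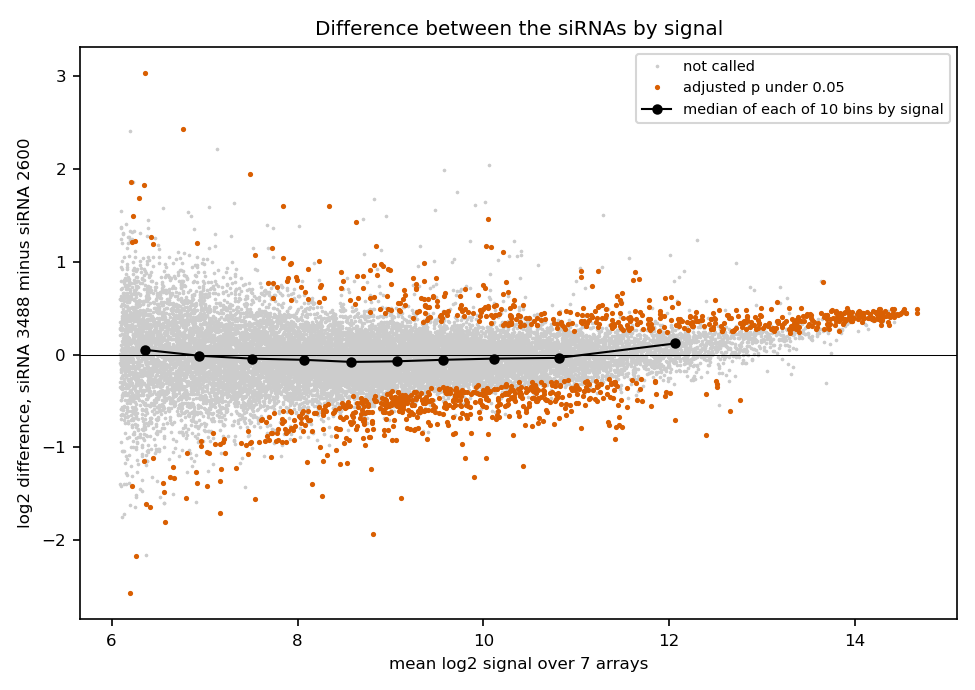
Difference between the siRNAs (log2, siRNA 3488 minus siRNA 2600, vertical axis) against mean log2 signal over the 7 arrays (horizontal axis) for the 18625 tested probe sets, with the 1119 called ones in orange and the median of each of 10 bins by signal as a black line. The line is at 0.12 in the brightest bin and between -0.079 and -0.013 in the next 8.

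The difference moved with brightness. The tested probe sets were split into 10 equal bins by mean signal. In the brightest bin the median difference was 0.12 and 309 were called higher against 44 lower, whereas the next 8 bins had medians between -0.079 and -0.013. After quantile normalization, which gives every array the same distribution, 238 probe sets were called higher and 336 lower, and after cyclic loess 321 and 373. Gene groups with at least 2 called genes are therefore given also under both scalings.

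Of the genes named here, the one measured most stably apart was Igfbp5, which encodes a secreted binding protein of insulin-like growth factors. Its probe set 1370960_at gave signals of 192 and 193 after siRNA 3488, 538 and 470.2 after siRNA 2600 and 263, 248 and 252 after the scrambled duplex. The siRNA arrays lay on opposite sides of all 3 scrambled arrays, low with siRNA 3488 and high with siRNA 2600. The difference was -1.39 ± 0.14 (limma adjusted p = 0.0028), a 2.62-fold higher signal with siRNA 2600. It was called under all 18 alternatives tried. A dimmer probe set of the gene, 1387348_at, gave 55.7 and 69.4 after siRNA 3488, 242 and 195 after siRNA 2600 and 67.7, 87.5 and 67.0 after the scrambled duplex, a difference of -1.80 ± 0.28. There the siRNA 3488 arrays lay at the level of the control.

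Several other transcripts were higher with siRNA 2600 while siRNA 3488 stayed nearer the scrambled level. Mlec encodes malectin, a lectin of the endoplasmic reticulum that binds glucosylated glycans of new proteins. Its signals were 1017 and 1132 after siRNA 3488, 2550.4 and 2373 after siRNA 2600 and 1203, 1157 and 946 after the scrambled duplex. Only the siRNA 2600 arrays stood apart, by 2.29-fold (difference -1.20 ± 0.12, limma adjusted p = 0.0028), and a dimmer Mlec probe set was also called, at -0.89 ± 0.14. Inhba, whose product forms activin A, gave 412 and 378 after siRNA 3488, 719 and 669 after siRNA 2600 and 357, 339.5 and 304 after the scrambled duplex (difference -0.81 ± 0.12). The siRNA 2600 arrays were the highest of the 7 for Inhba and the siRNA 3488 arrays the next highest. Its dimmer probe set 1369012_at did not pass (-0.33 ± 0.29). Klc1, a light chain of the motor kinesin, was -0.0086 from the scrambled mean with siRNA 3488 and 0.80 with siRNA 2600. A brighter Klc1 probe set differed between the siRNAs by 0.23, in the other direction, and a dimmer one by -0.12, and neither passed. Myo1f, an unconventional myosin (-0.95 ± 0.24), and Syngr1, a synaptic vesicle protein (-0.85 ± 0.18), had the same placement.

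The long noncoding RNA Oip5-as1, also called Cyrano, had the lowest adjusted p of any named transcript. On probe set 1385070_at it gave 654 and 660.5 after siRNA 3488, 1419 and 1432 after siRNA 2600 and 775, 886 and 753 after the scrambled duplex. The replicates of each siRNA nearly coincided and the control lay between them, closer to siRNA 3488 (difference -1.12 ± 0.10, limma adjusted p = 0.00257). Other Oip5-as1 probe sets did not pass, with differences of 0.18 and -0.053, so the value given is that of 1 probe set.

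Other transcripts went the opposite way: nearer the scrambled level with siRNA 3488 and lower with siRNA 2600. Sod3, the extracellular superoxide dismutase, gave 625 and 539 after siRNA 3488, 316 and 301 after siRNA 2600 and 574, 671 and 719.8 after the scrambled duplex. The siRNA 2600 arrays were the lowest of the 7, and the siRNA 3488 arrays overlapped the scrambled ones (difference 0.91 ± 0.13, limma adjusted p = 0.0103). Apex2, an endonuclease of DNA repair, gave 435 and 359 after siRNA 3488, 231 and 197 after siRNA 2600 and 446, 483 and 444 after the scrambled duplex (0.89 ± 0.14). Medag, a gene linked to adipocyte formation, was called on both of its brightest probe sets, with differences of 0.78 ± 0.08 and 0.84 ± 0.13. The remaining probe sets of Medag gave 0.44 and 0.03 and did not pass. Among dim transcripts, the anti-Müllerian hormone receptor Amhr2 (1.82 ± 0.33), the muscle ubiquitin ligase Trim63 (1.20 ± 0.24) and the glucokinase regulator Gckr (0.83 ± 0.21) had this placement too.

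Of the transcripts that were high with siRNA 3488, Mfap4, a glycoprotein of elastic microfibrils, was among the firmest. It gave 876 and 1002 after siRNA 3488, 476 and 366 after siRNA 2600 and 332, 309 and 284 after the scrambled duplex. Both siRNA groups were above all control arrays and siRNA 3488 was the higher of them by 2.25-fold (difference 1.17 ± 0.15, limma adjusted p = 0.0067). Atp2a1, a calcium pump best known from fast skeletal muscle, gave 955 and 965 after siRNA 3488, 439.7 and 537 after siRNA 2600 and 588, 634 and 646 after the scrambled duplex. Its control arrays lay between the siRNA groups with no overlap (0.98 ± 0.11). E2f1, a transcription factor of entry into DNA synthesis, gave 305 and 424 against 176 and 174, with the control between them at 188, 241 and 194 (1.04 ± 0.20).

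Srebf2 encodes SREBP-2, the transcription factor that drives cholesterol synthesis genes. Its signals were 1889 and 2065 after siRNA 3488, 609 and 1270.1 after siRNA 2600 and 683, 793 and 808 after the scrambled duplex. The siRNA 3488 arrays were the highest of the 7, and the siRNA 2600 replicates were more than 2-fold apart, one below and one above the control (difference 1.17 ± 0.25, limma adjusted p = 0.0315).

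Most of the largest differences in either direction came from dim probe sets. Mybpc3, a myosin-binding protein of cardiac muscle, had the largest positive one, 3.03 ± 0.52, from 168 and 217 with siRNA 3488 against 19.0 and 28.6 with siRNA 2600. The control arrays for it were 51.2, 146 and 168, so siRNA 2600 lay below the control and siRNA 3488 overlapped it. Gsg1 (1.86 ± 0.34), the Ras exchange factor Rasgrf1 (1.68 ± 0.43), the synaptic scaffold Shank1 (1.49 ± 0.37), Sult2a2 (1.21 ± 0.30) and Sapcd2 (1.15 ± 0.23) followed. A brighter Gsg1 probe set gave 0.53 and did not pass. The chaperonin subunit Cct6a completed the 12 largest at 1.16 ± 0.29, but its siRNA 2600 replicates were 640.3 and 1487 and its brighter probe set gave 0.24 and did not pass.

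**Figure D2:**
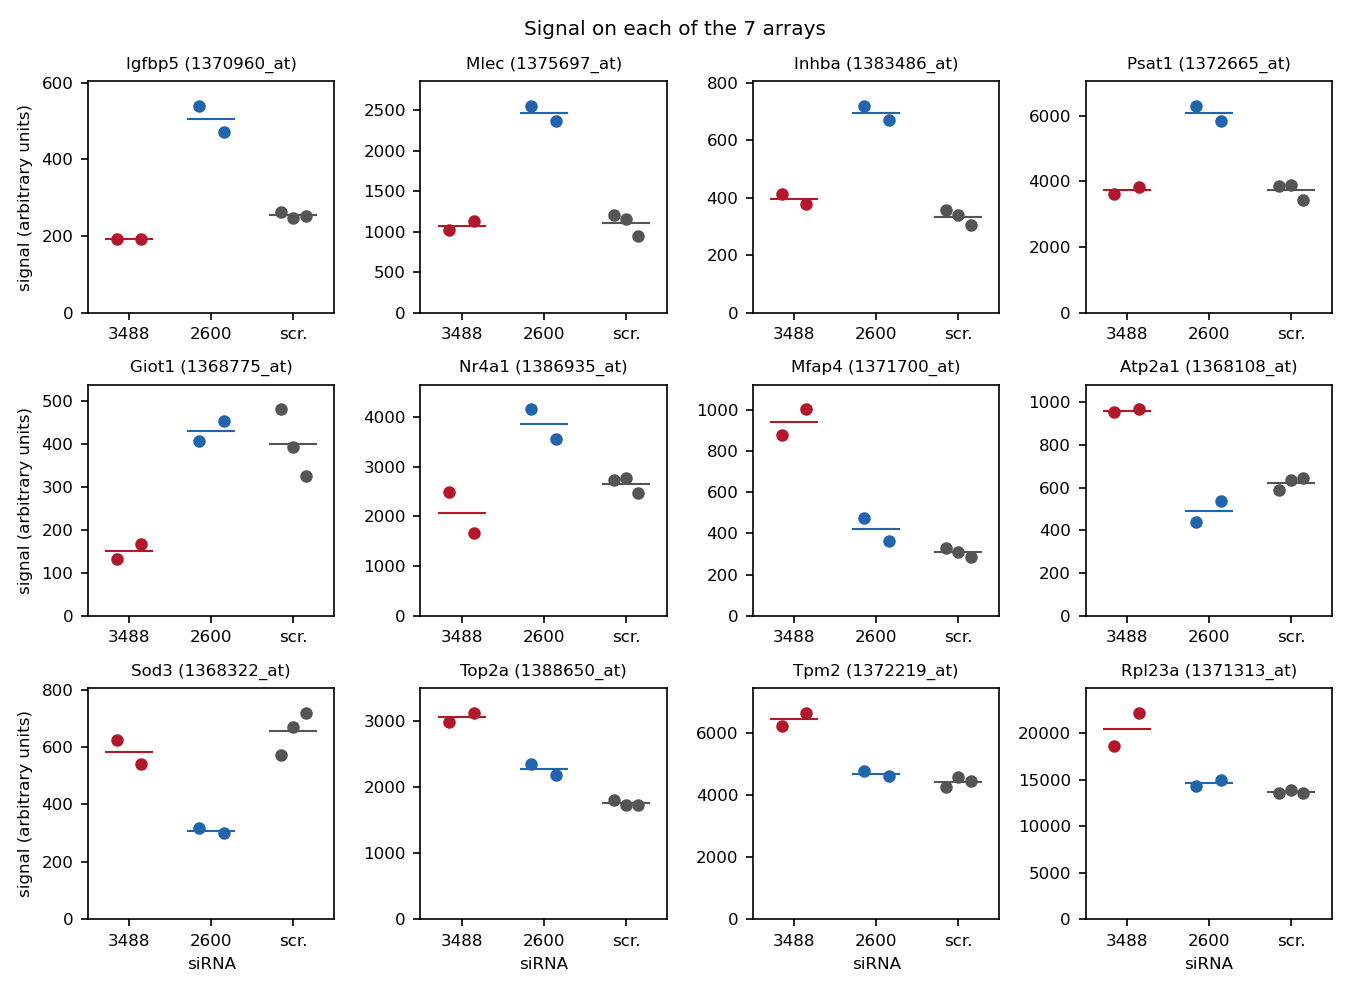
Linear signal (arbitrary units, vertical axes from 0) of 12 transcripts on the arrays of siRNA 3488, siRNA 2600 and the scrambled control (scr.), with a point for each array and a line at the mean. For Igfbp5, Mlec, Inhba and Psat1 both siRNA 2600 arrays are above the other 5, for Sod3 both are below them, and for Giot1 both siRNA 3488 arrays are below the other 5.

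In the other direction, Giot1, a zinc finger protein first found as gonadotropin-induced in the ovary, was low with siRNA 3488. It gave 133 and 168 after siRNA 3488, 406 and 453 after siRNA 2600 and 480.1, 394 and 326 after the scrambled duplex. The siRNA 2600 arrays lay within the control's range, and the difference was -1.52 ± 0.19 (limma adjusted p = 0.00688). Gk, glycerol kinase, gave 197 and 165 after siRNA 3488, 964 and 488 after siRNA 2600 and 429, 741 and 772 after the scrambled duplex (-1.93 ± 0.32). Its brighter probe set differed by -0.33 ± 0.10 and did not pass. C10h16orf89 (-2.57 ± 0.42) and the CREB coactivator Crtc3 (-2.17 ± 0.43) had the largest negative differences, both from dim probe sets. The brighter Crtc3 probe set gave -0.28 and did not pass.

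The same held for other genes of this group that had a second probe set. The mannosyl donor enzyme Dpm1 was called at -1.55 and its brighter probe set gave -0.12. For Dedd, a death effector domain protein, these were -1.61 and 0.12, for the transcription factor Mef2d -1.39 and -0.34, and for the RNA helicase Ddx19b -1.41 against -0.0084 and 0.39. None of the brighter ones passed. The glucose transporter Slc2a4 (-1.42 ± 0.34), the protease Gzmm (-1.38 ± 0.28), the endocytic GTPase Dnm2 (-1.36 ± 0.26), Podnl1 (-1.27 ± 0.24) and Fam117b (-1.23 ± 0.21) were also lower with siRNA 3488, and a brighter Fam117b probe set gave 0.041 and a dimmer Slc2a4 one -0.36, neither of which passed. Of 48 genes with at least 2 called probe sets, 46 had them in 1 direction, the exceptions being Csnk1d and Dusp1. Of 473 further tested probe sets of called genes that were not called themselves, 340 had the sign of the called one.

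Where the scrambled arrays stood was described by the position of their mean on the line from siRNA 2600 to siRNA 3488. Position 0 is the siRNA 2600 mean and position 1 the siRNA 3488 mean. Among the 1119 called probe sets the scrambled mean lay on the side of siRNA 2600 (position under 0.25) for 677 (60.5%). It lay between for 326 (29.1%) and on the side of siRNA 3488 (position over 0.75) for 116 (10.4%). In all tested probe sets these shares were 53.9%, 17.3% and 28.9%. The siRNA 3488 and siRNA 2600 arrays lay on opposite sides of all 3 scrambled arrays for 255 of the 326 between, and for 43 and 12 on the sides of siRNA 2600 and siRNA 3488. Over all tested probe sets with the control between, this was so for 532 of 3216 (16.5%), a reference that includes the called ones. On the sides of siRNA 2600 and siRNA 3488 it was so for 6.35% and 10.3% of the called ones, against 0.698% and 0.391% of all tested. Calls are picked for a gap between the siRNAs, which by itself favours opposite sides. For probe sets called higher with siRNA 3488 the 3 placements held 364, 105 and 60, and for those called lower 313, 221 and 56. Against the scrambled arrays themselves, 2911 probe sets (15.6%) were called for siRNA 3488 and 192 (1.03%) for siRNA 2600. Those comparisons share the control arrays and are given as counts only.

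**Figure D3:**
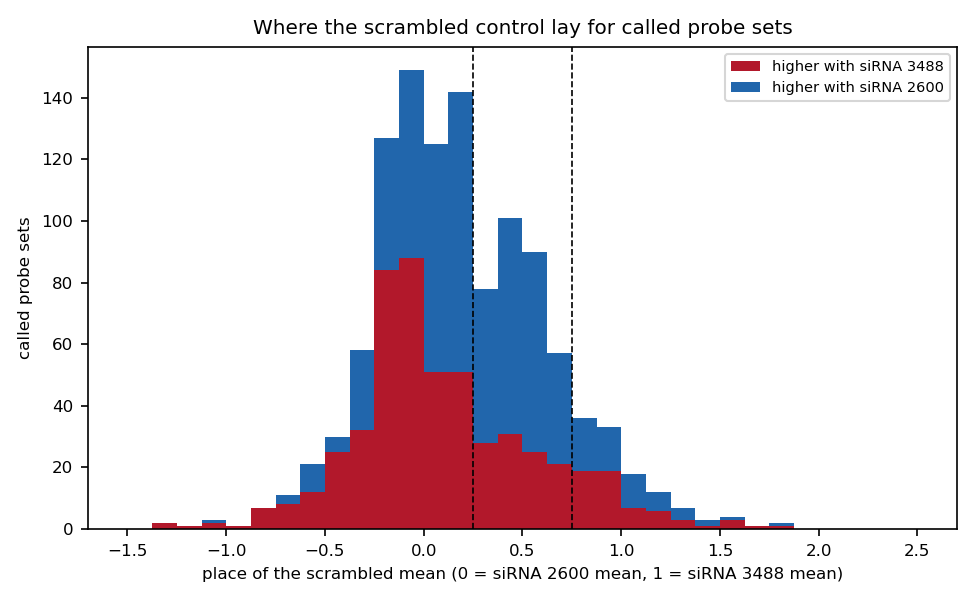
Number of called probe sets (vertical axis) by the position of the scrambled mean between the siRNAs (horizontal axis, 0 at the siRNA 2600 mean and 1 at the siRNA 3488 mean), stacked by the siRNA with the higher signal. Dashed lines at 0.25 and 0.75 part the 677 probe sets with the control on the side of siRNA 2600, the 326 between and the 116 on the side of siRNA 3488.

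Gene groups are described next by how many of their tested genes were called, each gene with its brightest probe set. For groups with at least 5 called genes, counts with an array left out are given in the order without siRNA 3488 replicates 1 and 2, without siRNA 2600 replicates 1 and 2 and without scrambled replicates 1, 2 and 3. The reference is all 10019 genes, of which 3.53% were higher and 3.42% lower with siRNA 3488, and whose median difference was -0.018. Groups for which the scrambled level adds direction are given with the median against the scrambled mean for each siRNA, and both medians use the same 3 control arrays.

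Immediate early genes and feedback regulators of growth factor signalling, which respond within minutes to serum and kinase activity, were called mostly as lower with siRNA 3488. Of 46 tested, 11 were lower and 2 higher, with a median of -0.22. The median against the scrambled arrays was -0.16 for siRNA 3488 and 0.14 for siRNA 2600. The orphan nuclear receptor Nr4a1 gave 2485 and 1673 after siRNA 3488, 4152 and 3553 after siRNA 2600 and 2739, 2769.8 and 2470.2 after the scrambled duplex (-0.91 ± 0.15, limma adjusted p = 0.0145). The siRNA 2600 arrays were the highest of the 7. The AP-1 subunit Junb gave 2906 and 2701 after siRNA 3488, 3936 and 4012 after siRNA 2600 and 3451, 3538 and 3128 after the scrambled duplex (-0.50 ± 0.08), again with no overlap. The other genes lower with siRNA 3488 were Ier2 (-0.78), the zinc finger factors Egr1 (-0.60), Egr2 (-0.76) and Klf10 (-0.29), Nr4a2 (-0.79), the ERK phosphatase Dusp5 (-0.79), the mRNA decay factor Zfp36 (-0.56), the receptor Fgfr1 (-0.53) and the anti-apoptotic Mcl1 (-0.49).

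The growth factor Pdgfa (0.46) and the phosphatase Dusp1 were the members called higher. Dusp1 had probe sets in opposite directions, 0.33 ± 0.08 on the brighter and -0.47 ± 0.09 on the dimmer one, so no direction is given for it. Fos (-0.13 ± 0.08) and Myc (-0.31 ± 0.17) did not pass. After quantile normalization 9 members were lower and 1 higher, and after cyclic loess 8 and 1. With an array left out the number lower was 13, 0, 1, 8, 5, 5 and 6. Without siRNA 3488 replicate 2, where it was 0, 16 members had an unadjusted limma p under 0.05.

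**Figure D4:**
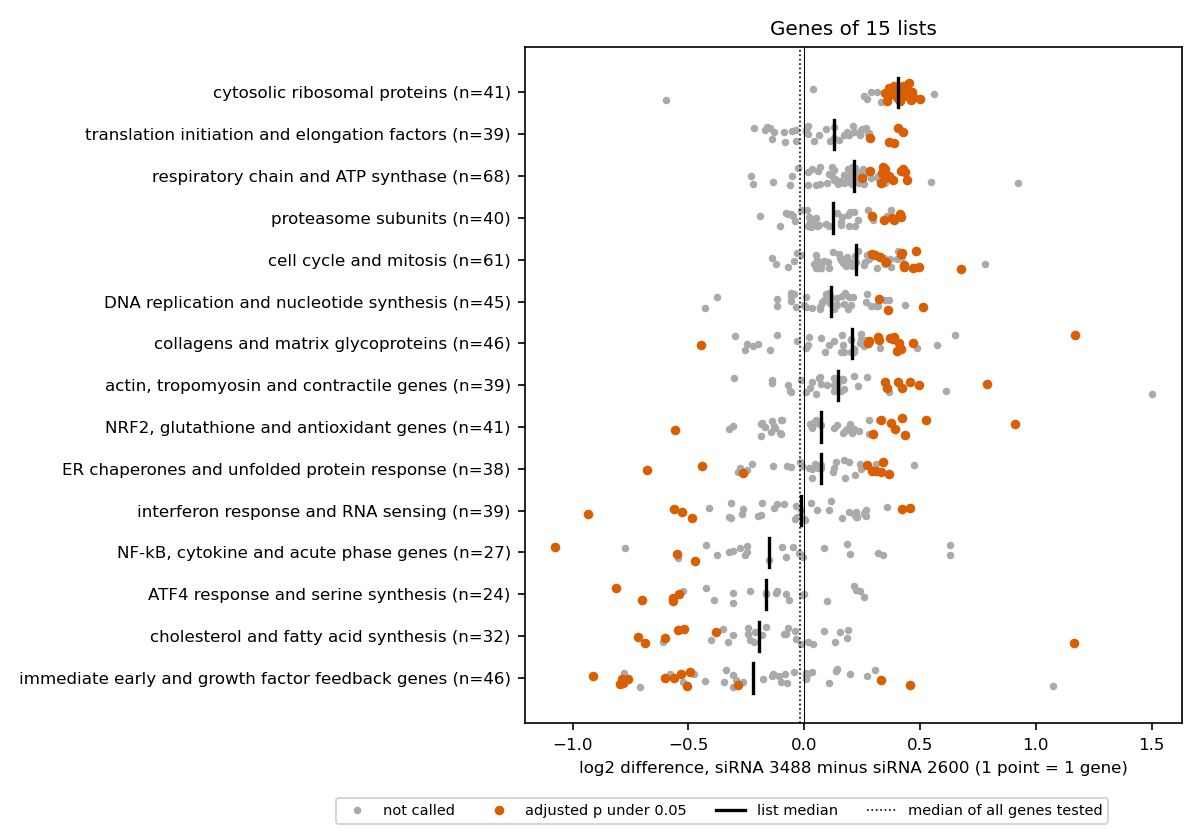
Difference between the siRNAs (log2, siRNA 3488 minus siRNA 2600, horizontal axis) for every tested gene of 15 gene groups (rows, with the number tested), called genes in orange, the group median as a bar and the median of all genes as a dotted line. The medians run from 0.40 for cytosolic ribosomal proteins at the top to -0.22 for immediate early genes at the bottom.

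Genes of cholesterol and fatty acid synthesis were called mostly as lower with siRNA 3488, in the direction opposite to Srebf2 itself. Of 32 tested, 6 were lower and 1 higher, the latter being Srebf2, with a median of -0.20. Against the scrambled arrays the median was 0.059 for siRNA 3488 and 0.21 for siRNA 2600. Cyp51, the lanosterol demethylase, gave 1728 and 1776 after siRNA 3488, 2779 and 2347 after siRNA 2600 and 1907, 1862 and 1489 after the scrambled duplex (-0.54 ± 0.12). The siRNA 3488 arrays lay below those of siRNA 2600 without overlap. The isomerase Idi1 (-0.69) and the late sterol enzymes Tm7sf2 (-0.72), Dhcr7 (-0.60) and Sc5d (-0.38) were lower as well, and so was the acetyl-CoA synthetase Acss2 (-0.52). Sqle, squalene epoxidase, was at -0.40 ± 0.12 and did not pass (limma adjusted p = 0.0731). The number lower was 2 after quantile normalization and 2 after cyclic loess, and 0, 1, 0, 5, 1, 0 and 3 with an array left out.

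Targets of ATF4, the transcription factor of the amino acid and integrated stress response, were lower with siRNA 3488 for 5 of 24 tested and higher for 0, with a median of -0.17. Over the whole list siRNA 3488 was near the scrambled level (median 0.019) and siRNA 2600 above it (0.25), which of the called members held for Psat1. Psat1, the aminotransferase of serine synthesis, gave 3623 and 3827 after siRNA 3488, 6282 and 5844 after siRNA 2600 and 3848, 3887 and 3436 after the scrambled duplex. The siRNA 2600 arrays stood apart from the other 5 (difference -0.70 ± 0.08, limma adjusted p = 0.00464). The pseudokinase Trib3 (-0.57), the cysteine-forming enzyme Cth (-0.57), the stress sensor Sesn2 (-0.54) and the lipoprotein receptor Vldlr (-0.81, with a further called probe set at -0.73) were the other members lower. For these the scrambled mean lay between the siRNAs. Relative to it, Trib3 was at -0.15 with siRNA 3488 and 0.42 with siRNA 2600, and Cth at -0.28 and 0.29. Sesn2 was at -0.33 and 0.21 and Vldlr at -0.52 and 0.30 in the same order. Atf4 (0.23), asparagine synthetase Asns (0.26) and Phgdh, the enzyme that starts serine synthesis (-0.08), did not pass. After quantile normalization 2 members were lower, and after cyclic loess 2, and with an array left out the number was 4, 1, 1, 6, 3, 3 and 5.

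Chaperones and quality-control genes of the endoplasmic reticulum went both ways, 6 of 38 higher and 3 lower (median 0.072). Edem1, which directs misfolded glycoproteins to degradation, gave 1287 and 1193 after siRNA 3488, 2074 and 1899.6 after siRNA 2600 and 1541, 1632 and 1448 after the scrambled duplex (-0.68 ± 0.09). Control arrays lay between the siRNA groups. Herpud1 (-0.44), of the same degradation route, and the translocon-associated Ssr1 (-0.27) were also lower, whereas the chaperones Hspa5 (0.33) and Hsp90b1 (0.29), the foldases P4hb (0.36) and Ppib (0.31) and the translocon subunits Sec61a1 (0.34) and Sec61b (0.27) were higher. For P4hb the difference turned to -0.026 after quantile normalization, under which 0 members of the group were higher (8 had an unadjusted limma p under 0.05) and 3 lower. After cyclic loess 1 was higher and 3 lower. With an array left out the number higher was 9, 0, 0, 4, 2, 1 and 2.

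The cell cycle genes that were called were all higher with siRNA 3488. Of 61 tested, 12 were called higher and 0 lower, 55 of the 61 were above 0, and the median was 0.22. Both siRNAs lay above the scrambled level, with medians of 0.56 for siRNA 3488 and 0.31 for siRNA 2600, and the list mean on each array relative to the control was 0.48 and 0.55 against 0.29 and 0.28. Top2a, the topoisomerase that untangles sister chromatids, gave 2979.6 and 3124 after siRNA 3488, 2350.3 and 2183 after siRNA 2600 and 1809.6, 1729 and 1726 after the scrambled duplex (0.43 ± 0.07, limma adjusted p = 0.0144). The 3 groups did not overlap and siRNA 2600 was in the middle. Cdca3, which promotes mitotic entry, gave 1641 and 1607, 1129 and 1175 and 977, 942 and 935 in the same order of groups (0.50 ± 0.08). The other 10 were the condensin subunit Ncaph (0.42), the kinetochore proteins Spc24 (0.68) and Cenpk (0.47), the motors Kif2c (0.48) and Kif11 (0.42), the cyclins Ccna2 (0.43) and Ccnb2 (0.31), the ubiquitin-conjugating enzyme Ube2c (0.35), Cdk4 (0.29) and the midzone organiser Prc1 (0.33). After quantile normalization 10 were higher and after cyclic loess 10, with medians of 0.23 and 0.25. With an array left out the number higher was 10, 0, 1, 12, 2, 2 and 5, and without siRNA 3488 replicate 2, where it was 0, 19 members had an unadjusted limma p under 0.05.

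Of genes of DNA replication and nucleotide synthesis, 3 of 45 were higher and 0 lower (median 0.12). They were thymidine kinase Tk1 (0.51 ± 0.08), the dUTPase Dut (0.32 ± 0.07) and the helicase subunit Mcm3 (0.36 ± 0.09). The number higher was 2 after quantile normalization and 2 after cyclic loess. Against the scrambled arrays the list medians were 0.34 for siRNA 3488 and 0.20 for siRNA 2600.

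Matrix genes were called mostly as higher with siRNA 3488, 12 of 46 against 1 lower (median 0.21). Beside Mfap4, the matricellular Sparc gave 15601 and 16459 after siRNA 3488, 11871 and 12289.5 after siRNA 2600 and 11559, 12553 and 11779.6 after the scrambled duplex (0.41 ± 0.07). The growth factor modulator Ccn2 gave 16799 and 16519, 11753 and 12307 and 13079, 12702 and 13579 in the same order (0.47 ± 0.07), with the control between the siRNAs. Col3a1 (0.42), Col5a2 (0.32), fibronectin Fn1 (0.39), elastin Eln (0.28), the laminin chain Lama5 (0.32), the crosslinking enzyme Lox (0.38), the collagen chaperone Serpinh1 (0.40), Pcolce (0.28), which enhances procollagen processing, and Mfap5 (0.37) were higher too. Col12a1, a collagen on the surface of fibrils, was the member lower, at 3306 and 3202 against 4524 and 4329 with the control at 4179, 4200.1 and 4308 (-0.44 ± 0.06). After quantile normalization 2 members were higher and 1 lower, after cyclic loess 4 and 1, and with an array left out the number higher was 9, 1, 1, 10, 7, 4 and 6.

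Actin and contractile genes were called higher for 7 of 39 and lower for 0 (median 0.14). Tpm2, a tropomyosin that lies along actin filaments, gave 6217 and 6646 after siRNA 3488, 4765 and 4593 after siRNA 2600 and 4257, 4570.4 and 4458 after the scrambled duplex (0.46 ± 0.07). The siRNA 3488 arrays were the highest of the 7. Mylk, the myosin light chain kinase, had the largest difference of those called (0.79 ± 0.15), being 0.25 from the scrambled mean with siRNA 3488 and -0.54 with siRNA 2600. Tpm1 (0.42), Myl12b (0.35), Tagln2 (0.41), Tmsb4x (0.50) and Actg1 (0.36) were the others, with 2 members called higher after quantile normalization, 5 after cyclic loess and 8, 0, 1, 9, 5, 4 and 5 with an array left out. Further tested Tpm1 probe sets, all dimmer, gave -0.28, 0.16, -0.043, -0.073 and -0.28 and did not pass. Among integrins and adhesion genes, the integrin subunit Itgb1 (0.28) and the syndecan Sdc4 (0.33) were higher and Itga6 (-0.69 ± 0.10) and Sdc1 (-0.34) lower, of 31 tested. After quantile normalization 0 were higher and 1 lower, and after cyclic loess 0 and 2, with an unadjusted limma p under 0.05 for 9 and 9 of the group.

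The largest share of any group was among cytosolic ribosomal proteins, 28 of 41 higher with siRNA 3488 and 0 lower (median 0.40). Rpsa gave 18419 and 21258 after siRNA 3488, 13795 and 14899.7 after siRNA 2600 and 13292, 14381 and 13986 after the scrambled duplex (0.46 ± 0.08). Rpl23a (0.47), Rps16 (0.46) and Rps29 (0.44) were alike. These are among the brightest transcripts of the array, with a median signal of 17427. On the arrays, the list mean relative to the scrambled control was 0.31 and 0.55 with siRNA 3488 and -0.024 and 0.15 with siRNA 2600, beside 0.33 and 0.70 and -0.091 and 0.13 for the added hybridisation controls. After quantile normalization 0 ribosomal protein genes were called, 6 having an unadjusted limma p under 0.05 (median -0.0009), and after cyclic loess 2 (median 0.15). The part of array brightness in this difference was not tested. With an array left out the number higher was 37, 0, 0, 24, 3, 2 and 2.

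Several other bright housekeeping groups were called in the same direction. The hybridisation controls moved with them and with the matrix and contractile genes, and their part in these differences was not tested. Respiratory chain and ATP synthase subunits were higher for 13 of 68 (median 0.21), among them Ndufb7 (0.44), Cox6a1 (0.45), Ndufb6 (0.33) and the cytochrome Cyc1 (0.33), with 3 called after quantile normalization, 4 after cyclic loess and 22, 0, 0, 14, 4, 3 and 3 with an array left out. Of 39 translation factors 5 were higher, namely Eif3h (0.43), Eif4a2 (0.36), Eef1g (0.39), Eef1a1 (0.40) and Eef2 (0.28). Dimmer probe sets gave -0.33 for Eif4a2, -0.034 for Eef1g, 1.63 for Eif3h and 0.42 for Eef1a1, and none of these passed. After quantile normalization 0 translation factors were called and 7 had an unadjusted limma p under 0.05, after cyclic loess 1 was called, and with an array left out 10, 0, 0, 4, 1, 1 and 1 were. For Eef1g and Eef1a1 quantile normalization turned the difference to -0.011 and -0.016. Proteasome subunits were higher for 6 of 40, with Psmb2 (0.41), Psmb5 (0.39), Psmd8 (0.38) and Psmc4 (0.34) as those of lowest p. The number was 5 after quantile normalization, 6 after cyclic loess and 8, 1, 1, 6, 3, 3 and 3 with an array left out. Mitochondrial ribosomal proteins, which are dimmer, were called at shares near those of all genes, 2.74% higher and 4.11% lower against 3.53% and 3.42%. Mrpl53 (0.39) and Mrpl33 (0.38) were higher and Mrpl1 (-0.63), Mrpl32 (-0.35) and Mrps18c (-0.59) lower, of 73 tested. After each of the scalings 1 of them was higher and 2 were lower, and with an array left out 2, 0, 0, 7, 0, 0 and 1 were higher and 1, 1, 1, 3, 2, 2 and 3 lower. Splicing factors had 3 of 70 higher (4.29%, against 3.53% of all genes), Snrpf (0.51), Hnrnpa3 (0.27) and Srsf5 (0.25), with 1 called after each of the scalings. A further Hnrnpa3 probe set was called at 0.37, and others of the gene at -0.11, -0.11 and -0.13 did not pass. Chromatin regulators had 1 of 67 lower (1.49%, against 3.42% of all genes), the demethylase Kdm2a (-0.33).

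**Figure D5:**
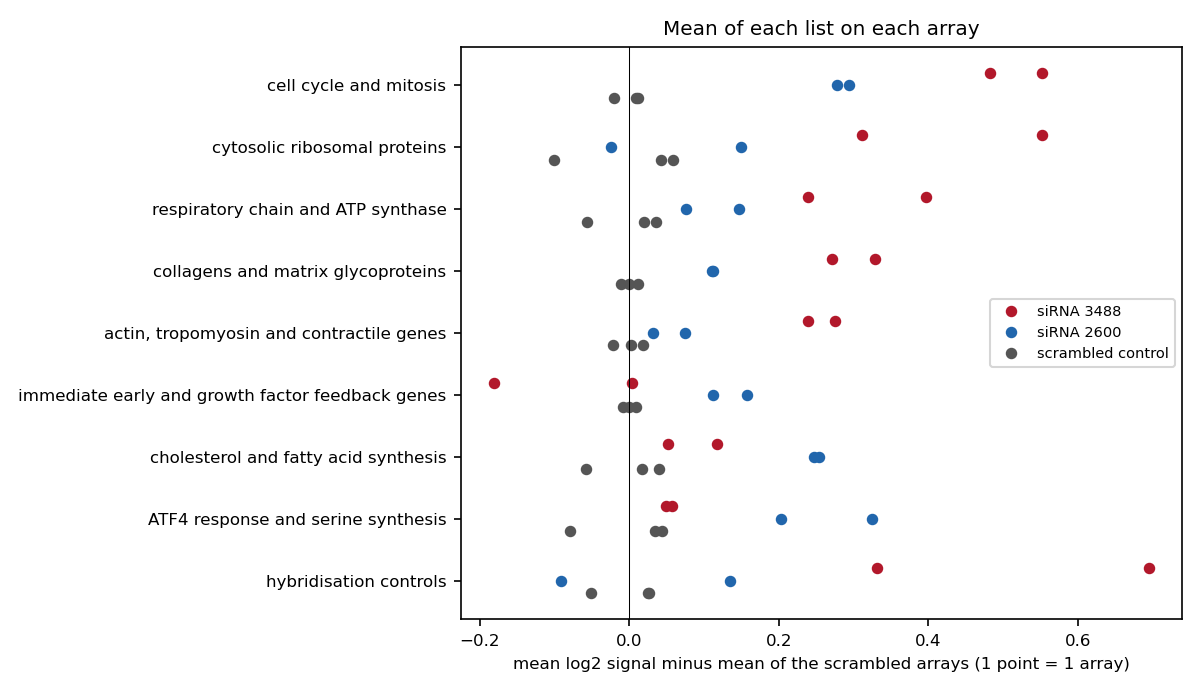
Mean log2 signal of 8 gene groups and of the hybridisation controls on each of the 7 arrays, relative to the mean of the scrambled arrays (horizontal axis, 0 is that mean). Cell cycle genes lie above 0 on all 4 siRNA arrays, at 0.48 and 0.55 with siRNA 3488 and 0.29 and 0.28 with siRNA 2600, and the hybridisation controls lie at 0.33 and 0.70 with siRNA 3488, right of all other arrays.

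Double-stranded RNA can itself be sensed by a cell, so genes of interferon response and RNA sensing were looked at as a group. Of 39 tested, 4 were lower with siRNA 3488 and 2 higher, with a median of -0.015 (2 lower after quantile normalization, 3 after cyclic loess and 3, 0, 1, 3, 2, 2 and 3 with an array left out). Ifi44, an interferon-induced gene, gave 609 and 674 after siRNA 3488, 902 and 990.0 after siRNA 2600 and 772, 775 and 744 after the scrambled duplex (-0.56 ± 0.10). The antiviral GTPase Mx2 gave 161 and 151, 313 and 285 and 229, 241 and 201 in that order (-0.93 ± 0.16). For both, the scrambled arrays lay between the siRNA groups. The factor Irf1 (-0.48) and the double-stranded RNA kinase Eif2ak2 (-0.53) were also lower, and B2m (0.46) and Irf3 (0.42) were higher. Of 21 genes of the RNA interference machinery 1 was called, the transport GTPase Ran (0.34), and the group's median was -0.042.

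Of NF-kB, cytokine and acute phase genes, 3 of 27 were lower and 0 higher (median -0.15). They were the subunit precursor Nfkb2 (-1.08 ± 0.21), the inhibitor Nfkbia (-0.47 ± 0.11) and the cytokine Il33 (-0.55 ± 0.12), and the number lower was 1 after quantile normalization and 2 after cyclic loess. Of 24 targets of p53, 8.33% were lower and 4.17% higher, against 3.42% and 3.53% of all genes. The kinase Plk2 (-0.55) and Sesn2 (-0.54) were lower and the CDK inhibitor Cdkn1a (0.31) higher, with 1 lower and 1 higher after each of the scalings. In the TGF-beta and activin group, Inhba was lower and Fstl1 (0.38) and Pmepa1 (0.47) higher with siRNA 3488, of 37. After quantile normalization 2 of this group were lower and 1 higher, and after cyclic loess 1 and 1.

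Antioxidant and glutathione genes were higher for 8 of 41 and lower for 1 (3 and 2 after quantile normalization, 5 and 1 after cyclic loess, and 10, 1, 1, 7, 5, 4 and 5 higher with an array left out). Beside Sod3, the glutathione transferases Gstm1 (0.39), Gstm5 (0.38) and Gstp1 (0.30) and the microsomal Mgst1 (0.53 ± 0.10) were higher. Mgst1 lay -0.20 from the scrambled mean with siRNA 3488 and -0.73 with siRNA 2600. The aldo-keto reductase Akr1b8 was the member lower, at 459 and 454 after siRNA 3488, 636 and 711 after siRNA 2600 and 572, 582 and 543 after the scrambled duplex (-0.56 ± 0.10).

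Of the relatives of the target, 9 of 16 ADAMTS genes on the array were bright enough to test and 1 was called. Adamts10, which binds fibrillin microfibrils, gave 1498 and 1676 after siRNA 3488, 1071 and 1116 after siRNA 2600 and 1466, 1473 and 1429 after the scrambled duplex (0.54 ± 0.08). The siRNA 2600 arrays were the lowest of the 7, and its other probe set gave 0.022 ± 0.11. Among other metalloproteases and the plasminogen system, the protease inhibitor Serpine2 gave 939.7 and 873 after siRNA 3488, 1500.0 and 1292 after siRNA 2600 and 828, 810.3 and 896 after the scrambled duplex (-0.62 ± 0.10). Mmp16 was lower too (-0.92 ± 0.20), and the membrane protease Mmp14 (0.28) and the plasminogen activator Plat (0.29) were higher, of 22 tested. After each of the scalings 2 were lower and 0 higher, with 7 at an unadjusted limma p under 0.05.

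Shares in the remaining groups varied, against 3.53% higher and 3.42% lower for all genes. Called higher were 13.33% of glycolysis and hypoxia genes, 12.77% of lysosome and autophagy genes, 10.53% of chaperones of cytosol and mitochondria and 28.57% of 7 fibroblast markers. The marker lists used here are longer than the marker sets given above, the fibroblast one having 15 genes on the array, of which 7 were tested. No primary cilium gene of 37 and no circadian clock gene of 16 was called (medians -0.074 and -0.18), while 6 and 7 of them had an unadjusted limma p under 0.05. Of glycolysis and hypoxia genes 4 of 30 were higher, including Pgk1 (0.39), Pgam1 (0.37) and Car9 (0.50), and Ankrd37 (-0.68) was lower. After quantile normalization and cyclic loess 0 and 0 of the group were higher (7 and 8 had an unadjusted limma p under 0.05), and with an array left out 4, 0, 0, 4, 2, 0 and 1. Lysosome and autophagy genes were higher for 6 of 47, with Cd68 (0.81) and Atp6v0c (0.39), and lower for 2, Atg12 (-0.35) and the galactosidase Gla (-0.55). The number higher was 2 after each of the scalings and 5, 0, 0, 6, 1, 1 and 2 with an array left out. Chaperones of cytosol and mitochondria had 4 of 38 higher, Cryab (0.42), Cdc37 (0.29), Cct4 (0.32) and Cct7 (0.40), with 1 called after quantile normalization and 2 after cyclic loess. Of epithelial junction and keratin genes the tight junction protein cingulin Cgn was lower (-0.40 ± 0.10), 1 of 21. Of kidney tubule markers the amino acid transporter subunit Slc7a9 was higher (0.77 ± 0.19), 1 of 13, and of fibroblast markers Col3a1 and Mfap5, 2 of 7, with 0 called after each of the scalings (1 and 2 at an unadjusted limma p under 0.05). None of 3 endothelial and 4 leukocyte markers tested was called, and 0 and 0 of them had an unadjusted limma p under 0.05.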

How the data were processed

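RNA of 7 NRK-52E cultures was measured, 1 Affymetrix array each, with groups taken from the sample titles. The authors deposited intensity values, 1 linear signal per probe set and array, which GCOS 1.4 produced, per the submitters' processing notes. Its settings and its detection calls were not given in the sources used here. On every array the mean without the lowest and highest 2% of signals was 500, so the values were already scaled.

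Of 31099 probe sets, 57 controls were left out. Of the remaining 31042, the platform annotation gives 1 gene symbol for 20826, several for 436 and none for 9780; only the first kind was named. By Entrez identifier 20758 were found in the GRCr8 gene table and 0 symbols changed. Signals under 1 were set to 1, log2 was taken, and the upper 60% by mean log2 signal (18625) were tested. The fit used limma 3.58.1 in R 4.3.3 (lmFit, then eBayes with an intensity trend) over all 7 arrays in 3 groups, with Benjamini-Hochberg adjustment over the probe sets tested. A call is an adjusted p under 0.05. Adamts16 lies below the filter and was fitted with all non-control probe sets. The fit was tested on simulated data. For gene groups, each gene was read by its brightest tested probe set.

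Named are Adamts16, the 12 largest calls each way, the 6 largest each way with the control between or on the side of siRNA 3488, and up to 4 called members of lowest p from each list with at least 3. All needed 1 symbol and arrays that did not overlap, the lists excepted. Other members are named for their role. The members and lists were chosen with earlier results of these data known, so no list is independent evidence. Replicate numbers are shared between groups and were checked: the differences between replicates 1 and 2 correlated at 0.14 between the siRNAs over probe sets, with 2 pairs only, and the numbers were not taken to pair cultures. Alternatives were other scalings, filters, offsets and floors, no trend, the 4 siRNA arrays alone, 1 probe set per gene, a replicate block and leaving out each array.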

Additional observations from a re-analysis of the deposited data

Results flagged for a closer look

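For 36 of the 125 named probe sets the arrays of siRNA 3488 all lay on one side of the 3 scrambled arrays and those of siRNA 2600 all on the other side, and limma called the difference between the siRNAs. This is 28.8% of them, against 310 of all 1119 called probe sets (27.7%) and 623 of all 18625 tested (3.34%), and 12 of the named ones were chosen because the control lay between the siRNAs. Differences (log2, siRNA 3488 minus siRNA 2600) are given in each case.

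Above the control with siRNA 3488 and below it with siRNA 2600 were Gsg1 (1.86, with a brighter probe set at 0.53 that did not pass), Sult2a2 (1.21), E2f1 (1.04), Medag (0.84), Atp2a1 (0.98), Ndufb7 (0.44), Psmd8 (0.38), Ccn2 (0.47), Myl12b (0.35), Mylk (0.79), Cdkn1a (0.31), Cdc37 (0.29) and Gstm1 (0.39). Below it with siRNA 3488 and above it with siRNA 2600 were Ddx19b (-1.41), Gzmm (-1.38), Igfbp5 (-1.39), Podnl1 (-1.27), Fam117b (-1.23), Oip5-as1 (-1.12), Mrpl1 (-0.63), Mrpl32 (-0.35), Col12a1 (-0.44), Itga6 (-0.69), Edem1 (-0.68), Vldlr (-0.81), Cth (-0.57), Trib3 (-0.57), Acss2 (-0.52), Ankrd37 (-0.68), Atg12 (-0.35), Ifi44 (-0.56), Mx2 (-0.93), Junb (-0.50), Mcl1 (-0.49), Mmp16 (-0.92) and Akr1b8 (-0.56).

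Outside the gene measurements, the 18 hybridisation controls were all brighter with siRNA 3488 than with siRNA 2600, by a median of 0.52, although the deposited arrays have the same trimmed mean.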

How the results depend on the processing

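The main count of 1119 calls (529 higher and 590 lower with siRNA 3488) was 574 (238 and 336) after quantile normalization and 694 (321 and 373) after cyclic loess. It was 727 after median centring, with 352 lower, and 459 (183 and 276) with no filter. It was 29 (11 and 18) from the 4 siRNA arrays alone and 5 (2 and 3) with no intensity trend, where 3256 and 3951 probe sets had an unadjusted p under 0.05. Leaving out 1 array gave 95 to 1562 calls, 29 to 814 higher and 52 to 748 lower. The lowest total came without siRNA 3488 replicate 2 and the highest without siRNA 2600 replicate 2. The 67 calls of at least 2-fold became 25 in the upper 40% of probe sets, 34 with 1 probe set per gene, 13 from the siRNA arrays alone, 4 with no trend and 30 to 280 with an array left out. With the replicate number as a block there were 1561 calls (792 and 769). Alternatives other than the scalings could not turn a sign, because the siRNA arrays of all 1119 calls did not overlap. Of the scalings, median centring and cyclic loess kept the sign of all 1119 probe sets and quantile normalization that of 1072. Under quantile normalization the differences of Eef1a1 (-0.016), Eef1g (-0.011) and P4hb (-0.026) turned negative. Of the 125 named probe sets, 76 were still called after quantile normalization, 91 after loess, 17 without siRNA 3488 replicate 2, 18 without siRNA 2600 replicate 1, 8 from the siRNA arrays alone and 2 with no intensity trend. Igfbp5 (1370960_at) passed under all 18 alternatives. Adamts16 differed by 0.046 to 3.19 with an array left out and never passed. The filters, the raised floor and 1 probe set per gene gave it no value. The cause of these shifts was not tested. With 2 arrays per siRNA, dim probe sets such as that of Adamts16 are the least precise, and array detection calls were not used here.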
